A study of Homo sapiens with 4 samples.

Results

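The regions described here were listed as gained in ATAC-seq with doxorubicin alone and held few reads in at least 1 untreated control library. ATAC-seq reads accessible DNA from the places where a transposase inserts sequencing adapters. The cells were K562, an established human myelogenous leukaemia line. The Doxo cells received 10 µM doxorubicin for 4 h, the diMe-Doxo cells 10 µM N,N-dimethyldoxorubicin for 4 h, the Acla cells 20 µM aclarubicin for 4 h, and the Control cells were left untreated. For each drug the authors deposited a list of regions with higher signal than Control, each with 2 treated and 2 control libraries from 1 GEO sample per group. No label ties the libraries of a group to separate cultures, so the spread between them may be technical.

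A region was a member if its coordinates stood in the Doxo list and in neither of the other lists, and if at least 1 control library held fewer than 10 reads. This rule kept 28191 regions, which were 42.3% of the 66720 regions of the Doxo list, 95.5% of the 29528 listed for Doxo only and 28.1% of the 100205 regions in any list. Together the members covered 19.8 Mb. The other regions of the Doxo list were 1337 listed for Doxo only with 10 or more reads in both controls, 4405 shared with diMe-Doxo, 4052 shared with Acla and 28735 shared by all 3 drugs. The rule used the Doxo and Control reads, so all values of that contrast are given as descriptions. A region that is missing from a list may still have gained signal with that drug by less than the list required, since each list holds only a log2 fold of at least 1.5 and a p of at most 0.05, and the signal of diMe-Doxo and Acla at members is not given.

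Doxorubicin slides between the base pairs of DNA, traps topoisomerase II on cut DNA, and is also known to drive histones out of chromatin. N,N-dimethyldoxorubicin, whose sugar amine is methylated, and aclarubicin, whose sugar chain is longer, are known to evict histones while causing few or no DNA breaks. Closed chromatin wraps DNA around histones and leaves the transposase little to cut, so a region that is closed in untreated cells gives few ATAC-seq reads. The study set these drugs side by side to ask which changes of chromatin go with histone loss and which with DNA damage.

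A control peak was called at a minority of members, though at a larger share of them than of the whole Doxo list. No control peak was called at 22083 of 28191 members (78.3%, exact 95% interval 77.8 to 78.8), against 55089 of 66720 regions of the Doxo list (82.6%). Among members there was a peak in 1 control at 3543 (12.6%) and a peak in both at 2565 (9.10%). By the peak calls, the name "little open in control" does not hold for 6108 members (21.7%). By reads, 6327 members (22.4%) had 10 or more in a control, against 15.9% of the Doxo list. These sets were not the same. Among members with a peak in 1 control 174 had 1 read in both controls, and among those with a peak in both 32 did. At regions listed for all 3 drugs, where no limit on control reads was set, a control peak was called at 3208 of 28735 (11.2%). Without such a limit the share was 20.9% at regions shared with diMe-Doxo, close to that of members, and 7.97% at those shared with Acla. Of the Doxo-only regions with 10 or more reads in both controls, 80.2% had a control peak. Members with a peak in both controls were wider, with a median of 1082 bp against 525 bp at members with none, and had a lower authors' log2 fold of Doxo over Control, 2.57 against 2.92.

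The control reads of members were uneven between the 2 libraries, as they were over the whole Doxo list. After the authors' scaling a read counted as 0.711 and 0.704 normalized reads in the Doxo libraries and as 1.44 and 1.39 in the controls, so raw reads of Doxo and Control are not on 1 scale. The median was 1 read in each control, the lowest control value in the list, at which a region with no read may also stand. Both controls held 1 read at 5222 members (18.5%), against 24.97% of the Doxo list and 31.4% of regions of all 3 drugs. Exactly 1 control held 1 read at 19539 members (69.3%), against 63.3% of the Doxo list and 60.9% of regions of all 3 drugs. Intermediate pairs were rare. The pair of 1 read in control 1 and 5 in control 2 occurred at 1008 members and the mirror pair of 5 and 1 at 904, while 3 reads in each occurred at 62. At 4755 members (16.9%) 1 control held 1 read and the other 10 or more, against 10.3% of the Doxo list. The rule asks for fewer than 10 reads in only 1 control and so admits such pairs. What sets a library to 1 read at a region was not tested.

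**Figure D1:**
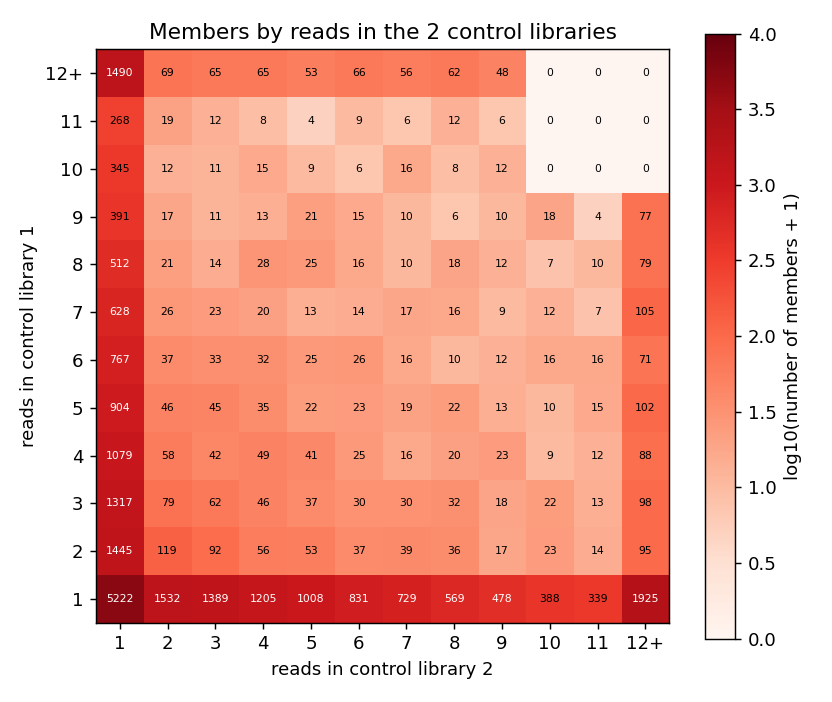
Members by their reads in control library 1 (vertical axis) and control library 2 (horizontal axis), with 12 standing for 12 or more reads, the number of members in each square and colour on a log10 scale; the empty corner is outside the rule. The counts lie along the left column and the bottom row, where 1 library holds 1 read: 5222 members have 1 read in both, and 62 have 3 in both.

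A value of 1 read also occurred where the authors had called a peak. Among members with a peak called in control 1, 1088 of 4409 (24.7%) had 1 read in that same library, against 14527 of 23782 (61.1%) without a call there. In control 2 the counts were 966 of 4264 (22.7%) and 13402 of 23927 (56.0%). At 32 members both controls had a called peak and 1 read each. The widest member was one of them. It spans 4588 bp on chromosome 22 at 20457409-20461997 (GRCh37) and had 50 and 31 Doxo reads, against 1 and 1 in the controls. Its Doxo libraries were also low for its width, and its authors' log2 fold of 4.34 (FDR 0.000397) rests on control values that the peak calls go against. K562 cells carry extra copies of part of the long arm of chromosome 22, and copy number was not tested here.

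The other wide members mostly had 1 high and 1 low control. The region of 3945 bp on chromosome 11 at 133787131-133791076 had 440 and 503 Doxo reads, against 70 and 1 in the controls, and that of 3769 bp on chromosome 8 at 58170258-58174027 had 423 and 448 against 53 and 1. Both had peaks in both controls, with an authors' FDR of 0.0748 and 0.0431. The region of 3840 bp on chromosome 17 at 62064483-62068323 had 245 and 271 reads with Doxo and 9 and 43 in the controls. These members lie inside the rule through 1 library. The region of 3737 bp on chromosome 2 at 74740083-74743820 had 1045 and 1083 reads with Doxo against 34 and 1, an authors' log2 fold of 4.90 (FDR 0.000869), and no control peak.

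The widest gaps between controls, at members chosen after their values were seen, were on chromosome 8 at 104510763-104514203, where Doxo gave 1035 and 1101 reads and the controls 83 and 2, on chromosome 16 at 70696794-70699323, with 633 and 672 against 1 and 76, and on chromosome 19 at 812444-815316, with 426 and 499 against 1 and 72. The low library was control 2 at the first and control 1 at the other two. At each of the 3 both Doxo signals stayed above the higher control after scaling.

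Doxo reads of members ranged from 2 to 1087 in library 1 and from 3 to 1165 in library 2. The medians over members were 42 and 47 reads, or 29.9 and 33.1 normalized reads, with Doxo, against 1 and 1 read, or 1.44 and 1.39 normalized reads, in the controls. The SD over members of the log2 ratio of Doxo library 2 to library 1, divided by the square root of 2, was 0.35. At regions of all 3 drugs it was 0.46, with fewer Doxo reads there (medians of 34 and 36). It leaves out the shared offset between the libraries, a median log2 ratio of 0.14 at members. The Doxo signals differed more than 2-fold at 1714 members (6.08%). Both Doxo signals lay above both control signals at 28185 members, beside 100% of the Doxo list after rounding, and they overlapped at 6. All listed regions had been chosen as gained, so nothing is read from this count.

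**Figure D2:**
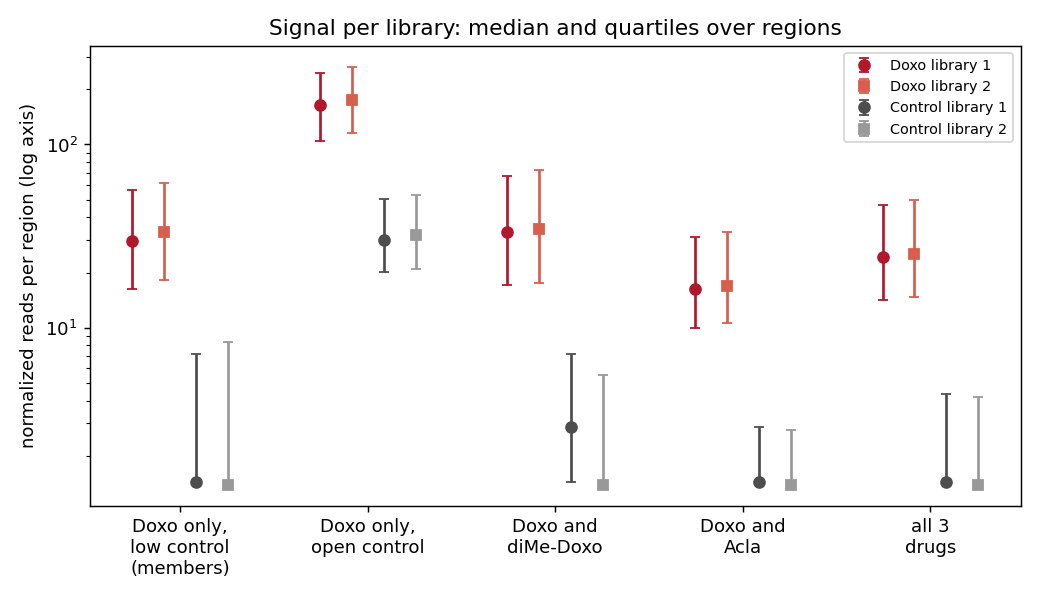
Normalized reads per region (log axis) in each Doxo and each control library, as medians with quartiles over the regions of 5 classes of the Doxo list. Members have Doxo medians of 29.9 and 33.1 above control medians of 1.44 and 1.39, and the Doxo-only regions with open controls stand higher in all 4 libraries.

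The authors' log2 fold of members had a median of 2.86, with quartiles of 2.40 and 3.47 and a range of 1.50 to 7.48. At regions of all 3 drugs the median was 3.13, at those shared with diMe-Doxo 3.01 and at those shared with Acla 2.70. A log2 fold of at least 4 was listed for 3104 members (11.01%), against 16.5% of the Doxo list and 22.1% of the all-3 regions. The authors' FDR was at most 0.01 at 12828 members (45.5%) and above 0.05 at 5768 (20.5%), close to the 48.8% and 18.8% of the whole list. edgeR's quasi-likelihood test on recovered reads, fitted over the whole list, called 25497 members (90.4%) higher with Doxo at an adjusted p of at most 0.05, beside 93.7% of the whole list. The list was selected from the same libraries, so this count is no independent check. Without Doxo library 1 and Doxo library 2 the fitted median log2 fold of members was 2.89 and 2.77, against 2.81 with all 4 libraries. When TMM or DESeq2 size factors were set on the listed regions themselves, 0 members were called higher. Over the whole list these settings called 0% and 0.114%.

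Members were narrow and dense in Doxo signal. Their median width was 578 bp, with quartiles of 381 and 895 bp, against 1019 bp at regions of all 3 drugs and 749 bp at regions shared with diMe-Doxo. The median was below that of the all-3 regions on each of 23 chromosomes (1 to 22 and X). Per length, the median Doxo signal was 55.4 normalized reads per kb at members, against 47.4 at regions shared with diMe-Doxo, 23.6 at those shared with Acla and 25.6 at those of all 3 drugs. The Doxo-only regions with open controls were denser still, with 111. It exceeded that of the all-3 regions on 23 of 23 chromosomes. The median control signal per kb was also higher at members, 7.06 against 2.80 at all-3 regions. Regions of 1 set of libraries are not replicates, so these differences carry no test.

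The difference in density was present at every width. Among regions under 500 bp the median Doxo signal was 56.6 normalized reads per kb at 11421 members and 43.7 at 2241 regions of all 3 drugs. From 500 to below 1000 bp it was 50.1 against 23.7, from 1000 to below 1500 bp 59.9 against 23.1, and at 1500 bp or more 74.7 against 29.8. Regions shared with diMe-Doxo came close to members at the ends of this scale, with 52.6 under 500 bp and 71.5 at 1500 bp or more. Regions shared with Acla stayed between 20.2 and 37.0.

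In peak calls of the Doxo libraries, members stood between the shared regions and the Doxo-only regions with 10 or more reads in both controls. Both Doxo libraries had a called peak at 21419 members (76.0%), 1 of them at 5338 (18.9%) and neither at 1434 (5.09%). A peak in both was called at 63.4% of the whole Doxo list, 92.6% of those Doxo-only regions, 56.7% of regions shared with diMe-Doxo, 48.4% of those shared with Acla and 52.8% of those of all 3 drugs. The share was above that of the all-3 regions on 23 of 23 chromosomes. Under 500 bp it was 66.2% at members and 23.7% at all-3 regions, and at 1500 bp or more 97.2% and 77.8%. At 1068 members (3.79%) no peak was called in any of the 4 libraries of this list, against 17.96% of the all-3 regions.

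**Figure D3:**
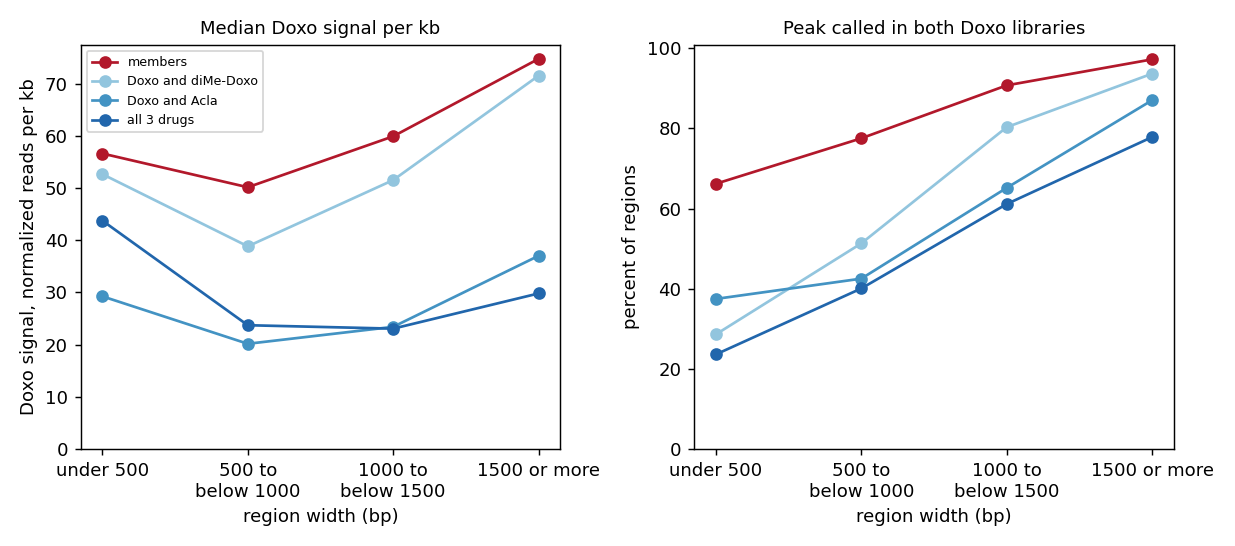
Median Doxo signal in normalized reads per kb (left) and percent of regions with a peak called in both Doxo libraries (right) by region width, for members and for regions shared with diMe-Doxo, Acla or both. Members lie above the all-3 regions in every width class, from 56.6 against 43.7 under 500 bp to 74.7 against 29.8 at 1500 bp or more.

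Members varied with their control reads in width and peak calls more than in fold. The 5222 members with 1 read in both controls had a median width of 360 bp, 18 and 20 reads with Doxo and an authors' log2 fold of 3.21. The 14784 members with 1 read in one control and 2 to 9 in the other, the largest class with 52.4%, had medians of 546 bp, 36 and 41 Doxo reads and a log2 fold of 2.81. The 4755 members with 1 read in one control and 10 or more in the other were 1094 bp wide at the median, had 111 and 123 Doxo reads and the same order of fold, 2.83. At the 1572 members with 2 to 9 reads in one control and 10 or more in the other, a peak was called in both controls at 48.5%, against 0.613% of the members with 1 read in both. The limit is set in reads per region, so a wide region reaches it at a lower density of reads.

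Regions on either side of the limit had close values. The 175 members whose lower control held 9 reads had a median width of 1156 bp and an authors' log2 fold of 2.31, and a peak in both controls at 57.7%. The 143 Doxo-only regions whose lower control held 10 reads had 1328 bp, 2.33 and 59.4%. Just inside, the lowest FDR was that of the region on chromosome 1 from 35441619-35443943, which had 435 and 498 Doxo reads beside 12 and 9 control reads (FDR 7.93e-08 in the authors' deposited table). Next came chromosome 7 at 75516989-75519105, with 340 and 420 against 9 and 10, and chromosome 1 at 43813988-43815624, with 322 and 382 against 9 and 11. Just outside stood chromosome 21 at 33688425-33690407, with 514 and 568 against 10 and 10 (FDR 7.25e-09), chromosome 16 at 89344198-89347523, with 523 and 664 against 16 and 10, and chromosome 8 at 21955093-21956643, with 342 and 385 against 10 and 11. All 6 had an authors' log2 fold above 4.

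The leading members held 177 to 452 reads in each Doxo library, against 1 to 5 in each control. On chromosome 7 at 64894517-64896029, a region of 1512 bp, the Doxo libraries held 329 and 385 reads and the controls 1 and 1. Its authors' log2 fold of 7.48 was the highest and its FDR of 4.31e-11 the lowest among members. The ratio of Doxo to Control signal was 178, with a counting interval of 49.3 to 1478 because the controls held so few reads, and such intervals cover counting error only. A diMe-Doxo or Acla region lay 6785 bp away and the nearest other member 173890 bp away.

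Further members led by FDR or fold had similar read counts. On chromosome 15 at 59156808-59158140 there were 328 and 351 Doxo reads, against 2 and 2 in the controls (log2 fold 6.41 and FDR 3.01e-10 in the authors' deposited table). On chromosome 6 at 26760890-26762402 there were 236 and 290 against 2 and 1 (6.45, 2.22e-09), and at 58198873-58200245 of the same chromosome 187 and 210 against 1 and 1 (6.63, 3.83e-09). In each of these the Doxo libraries lay near each other and far above both controls. On chromosome 8 at 38125234-38127184 there were 384 and 452 against 2 and 5 (5.91, 2.51e-09), with a peak called in 1 control. On chromosome 21 at 45379346-45380360 there were 177 and 209 against 1 and 1 (6.59, 5.39e-09). The nearest diMe-Doxo or Acla region was 277167 bp from the member on chromosome 15, 145972 and 186801 bp from those on chromosome 6 and 150894 bp from that on chromosome 8, so these gains stood far from any region listed for the other drugs. On chromosome 21 it was 7196 bp away.

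Members made up an unequal share of the Doxo list from chromosome to chromosome. They were 60.7% of the listed regions on chromosome 19 (1517 of 2501, exact 95% interval 58.7 to 62.6), 57.4% on chromosome 17, 55.5% on chromosome 16 and 54.9% on chromosome 22, against 42.3% over the genome. The share was 32.3% on chromosome 4 (1106 of 3424, interval 30.7 to 33.9), 32.8% on chromosome 5, 33.6% on X and 35.3% on chromosome 8. Chromosomes 16, 17, 19 and 22 are rich in genes and in G and C, while 4, 13, 18 and X are comparatively poor in genes. On chromosomes 13 and 18 the share was 42.3% and 41.5%, close to that of the genome. Gene density was not measured here, and its relation to these shares was not tested. K562 cells are aneuploid, which is why members are given as a share of the Doxo list of the same chromosome. A member must also be absent from the other lists, whose sizes differed by chromosome. Chromosome 19 held 685 diMe-Doxo and 1070 Acla regions beside 2501 of the Doxo list, and chromosome 22 held 339 and 406 beside 1143. On chromosome 4 there were 3532 and 4228 beside 3424. The shares therefore depend on the length of the other lists as well.

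The unequal shares were also present among regions with the same control values. Over the genome, members were 30.9% of the 16255 listed regions with 1 read in both controls and no control peak. Within these the share was 46.3% on chromosome 17, 44.6% on chromosome 22, 39.7% on chromosome 19 and 38.5% on chromosome 16, against 22.9% on chromosome 8, 23.2% on X, 23.4% on chromosome 11, 24.7% on chromosome 5 and 26.9% on chromosome 4. Chromosomes 16, 17, 19 and 22 held 16.8% of members (4733), against 12.3% of the Doxo list. These chromosomes had the highest member shares of the list, so a value above that of the list followed from their choice. They held 18.9% of the Doxo-only regions with open controls and 20.1% of regions shared with Acla. Of regions shared with diMe-Doxo they held 5.36%, and of regions of all 3 drugs 7.66%. The share on these chromosomes is thus not particular to members, since regions shared by Doxo and Acla and Doxo-only regions with open controls had higher ones.

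**Figure D4:**
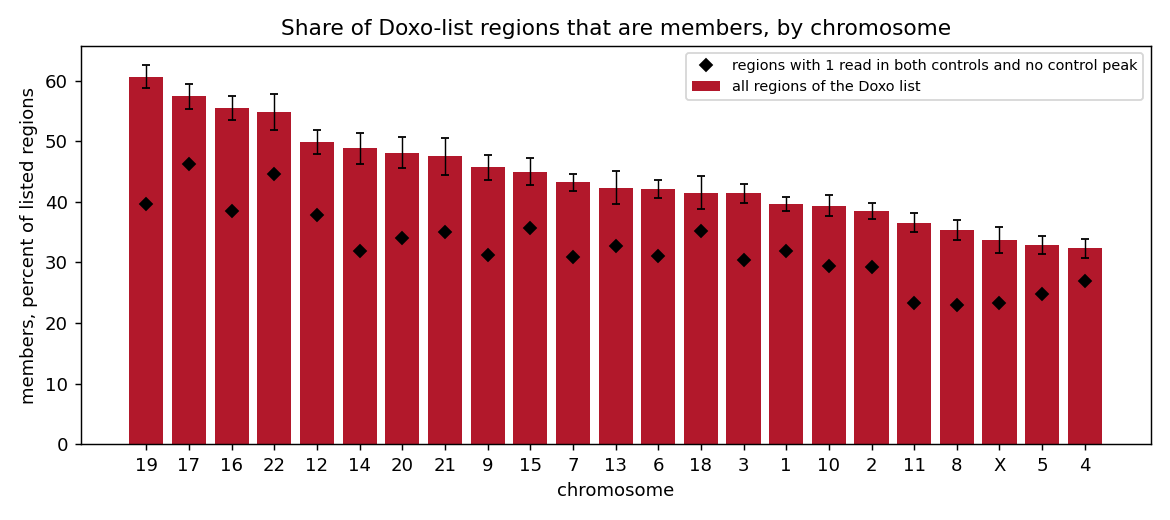
Percent of the Doxo list's regions that are members on chromosomes 1 to 22 and X, in falling order, with exact 95% binomial intervals that cover counting only (bars), and the same percent among regions with 1 read in both controls and no control peak (diamonds). Bars run from 60.7% on chromosome 19 to 32.3% on chromosome 4, and the diamonds from 46.3% on chromosome 17 to 22.9% on chromosome 8.

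Within chromosomes the members were crowded, and the fullest windows lay near chromosome ends. The 1 Mb window with the most members was chromosome 16 at 89-90 Mb. It held 106 members among 146 Doxo-list regions, beside 27 diMe-Doxo and 34 Acla regions. Next came chromosome 1 at 1-2 Mb, with 88 of 144 beside 41 and 38. Chromosome 7 at 2-3 Mb had 82 of 155 beside 73 and 55, and chromosome 11 at 0-1 Mb 81 of 120 beside 29 and 25. Windows with 77 members each followed on chromosome 17 at 80-81 Mb (of 120), chromosome 4 at 1-2 Mb (of 146) and chromosome 7 at 1-2 Mb (of 155). Over the genome members were 42.3% of the Doxo list. Within 1 Mb of the first or last listed region of a chromosome lay 6.45% of members (1818), against 3.71% of regions of all 3 drugs, with members higher on 18 of 23 chromosomes. Within 5 Mb the shares were 21.9% and 17.99%. For the Doxo-only regions with open controls they were 6.28% and 25.7%, and for regions shared with diMe-Doxo 5.45% and 22.02%.

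Other stretches of the genome held no member. Of 2848 windows of 1 Mb with a region of any list, 507 had none, and in 151 of these 10 or more regions of all 3 drugs were listed. The clearest examples, chosen after their values were seen, were chromosome 16 at 34-35 Mb, with 0 members and 46 regions of all 3 drugs, and chromosome 1 at 177-178 Mb, with 0 and 43. The 285 windows with the most members held 41.4% of them. The 285 windows with the most all-3 regions held 33.6% of those. In 982 windows there were 10 or more members, and 604 of these had more members than diMe-Doxo regions and more than Acla regions.

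Members neighboured other members, and regions of the other drugs lay farther off. The nearest other member was 5710 bp away at the median, against 70474 bp from a region of all 3 drugs to the nearest member. The nearest diMe-Doxo or Acla region was 18025 bp from a member, against 5870 bp from an all-3 region, 7114 bp from a region shared with diMe-Doxo and 13089 bp from a Doxo-only region with open controls. Within 10 kb, 61.5% of members had another member and 38.3% a region of another drug, and for all-3 regions these shares were 21.1% and 64.1%. A member lay within 10 kb of 46.8% of regions shared with diMe-Doxo, 25.8% of those shared with Acla and 41.1% of the Doxo list. The Doxo-only regions with open controls also lay near members, 66.8% of them within 10 kb, so the crowding is not particular to low control reads. The share with a region of another drug within 10 kb was lower at members than at all-3 regions on 23 of 23 chromosomes. The lists share their controls and a member is by its rule no region of the other lists, so the distances are a description.

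**Figure D5:**
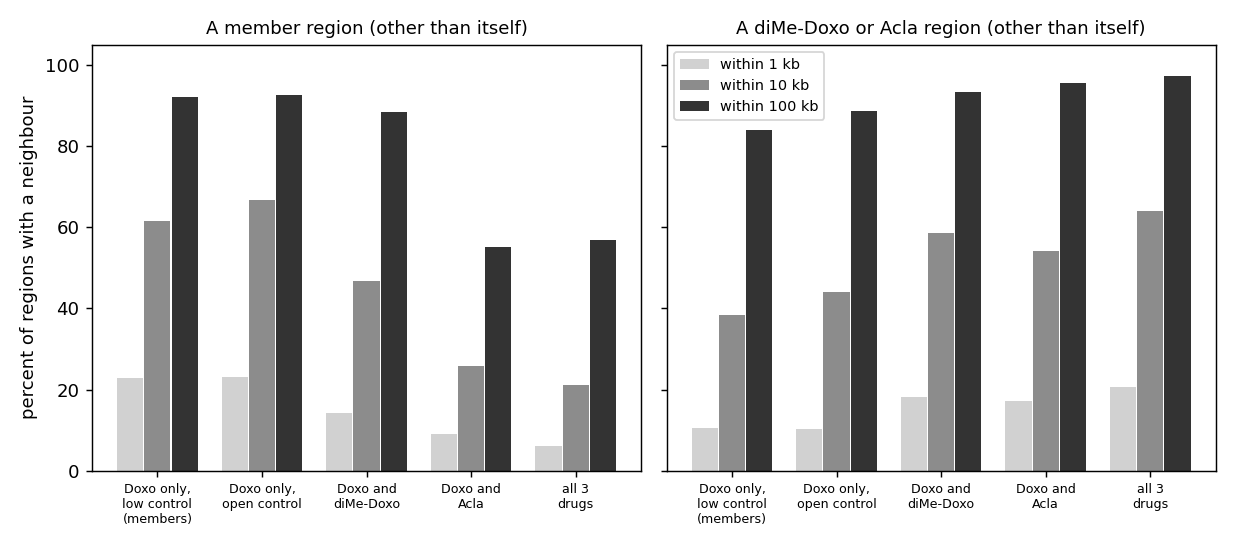
Percent of regions with a member (left) or a region listed for diMe-Doxo or Acla (right) within 1, 10 and 100 kb, the region itself left out, for 5 classes of the Doxo list. Within 10 kb, members have another member in 61.5% and a region of another drug in 38.3%, and all-3 regions in 21.1% and 64.1%.

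Many members followed one another along the chromosome with no other listed region between them. In runs of at least 5 stood 13844 members (49.1%), and 6205 (22.01%) stood in 449 runs of at least 10. Of the regions of all 3 drugs, 9.06% stood in uninterrupted runs of at least 5 of their own kind and 0.438% (126) in runs of at least 10, and the longest run was 18. The longest runs of members, chosen after their values were seen, were 38 members over 926 kb on chromosome 12 at 122405674-123331795, 37 over 168 kb on chromosome 7 at 98484810-98652564, 34 over 1048 kb on chromosome 18 at 8962110-10010260 and 32 over 272 kb on chromosome 16 at 89378953-89651020. By the definition of a run, neither diMe-Doxo nor Acla had a listed region in these stretches.

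The limits of the 3 lists can be set side by side at equal control reads. Among regions with 1 read in both controls, the lowest authors' log2 fold was 2.32 in the Doxo list, 2.13 in the diMe-Doxo list and 2.13 in the Acla list, and the medians were 3.21, 2.82 and 2.96. The 5222 members with these control reads had the same median as the Doxo list, 3.21. The lists were scaled separately and the signal of the other drugs at members is not given, so no difference between drugs was tested at any member.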

How the data were processed

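ATAC-seq libraries of K562 cells were used. The submitters' processing notes name GRCh37 as the build and DiffBind as the tool that compared regions. The sources used here do not name the aligner, the peak caller, the normalization or any tool version. The lists carry no header, so the meaning of each column was inferred from its values. Per library, the deposited signal is the region's read count multiplied by a constant factor, the deposited mean signal and fold are on a log2 scale, and the p-value and false discovery rate (FDR) of each region and the peak calls are the authors' own. Reads were recovered by dividing by each library's smallest step, and 100% of values in the Doxo list came out whole within 0.1 reads. Within members the libraries held 1831787 and 2041830 reads with Doxo and 105763 and 122712 in the controls, whose reads were the same in the other lists at each region shared with the Doxo list; the full depth is unknown.

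Members and lists were chosen with earlier results of these data known. Named regions are the 5 members with the lowest FDR, the 5 with the highest log2 fold, the 5 widest, 3 on either side of the limit with the lowest FDR and the 5 windows with the most members; others are said to be chosen after their values were seen. The edgeR quasi-likelihood test used the authors' factors, no filter and Benjamini-Hochberg adjustment over the whole Doxo list, and was run on simulated data. Only 200 regions were changed in the simulation, whereas all regions of the real list had been chosen as gained. The simulation therefore does not check the count of members called. Alternatives were TMM factors, DESeq2, a filter on low counts, other limits of the rule and leaving out each library. Coordinates are printed as deposited, with no statement on whether starts are 0-based or 1-based. No genome or gene annotation of GRCh37 was used here, so the planned gene lists, promoter overlap, motifs and GC share were not run and no gene is named. Gained regions cannot show that a marker of the cell line is absent. The software was edgeR 4.0.16 and DESeq2 1.42.0 under R 4.3.3, and pandas 2.3.3, numpy 2.4.6 and scipy 1.17.1 under Python 3.11.15, with plots from matplotlib 3.10.9.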

Additional observations from a re-analysis of the deposited data

How the results depend on the processing

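The number of members stayed within 1.5 times 28191 under each other limit and without each control library. The lists were not made anew without a library. Leaving out a Doxo library therefore kept the same members and could change only their fold. Requiring no shared base could change no value, because no listed region overlapped another. With a limit of 5 reads the median width was 564 bp and 80.3% of members had no control peak, and with 20 reads 592 bp and 76.8%. With fewer than 10 reads in both controls the width was 500 bp, 85.6% had no control peak, 16.1% lay on chromosomes 16, 17, 19 and 22, and 35.7% lay within 10 kb of a region of another drug. With all lists cut to a log2 fold of 2 or more and an FDR of 0.01 or less these were 705 bp, 82.4%, 17.7% and 23.5%, with a median log2 fold of 3.61. That setting gave 19406 regions, although only 12828 of the 28191 members had an FDR of 0.01 or less. The other lists were cut as well, so the set took in regions that the full lists gave for another drug. The 23.5% was measured to the cut lists. Without 1 library the median width ranged from 538 to 578 bp, the log2 fold from 2.81 to 3.43, the share with no control peak from 78.3% to 81.6%, the share on the 4 chromosomes from 15.1% to 17.8% and the share within 10 kb from 36.8% to 38.3%. Members with no control peak, an alternative chosen after seeing the data, had a width of 525 bp, with 17.4% on the 4 chromosomes and 36.7% within 10 kb. Leaving out members with 1 read in either control, also chosen after seeing the data, left 3430 members, with 830 bp, a log2 fold of 2.58, 45.2% with no control peak, 14.1% and 42.3%.

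The edgeR count of 25497 members called higher ranged from 6048 without Doxo replicate 2 and 6136 without Doxo replicate 1 to 26043 without Control replicate 1. It was 0 with TMM factors in edgeR (186 at an unadjusted p under 0.05) and 0 with DESeq2 and its size factors (142). Both scale to the listed regions, all of which were chosen as gained, and so remove the shared gain: the median log2 fold of members was -0.33 and -0.44 there. Without either Doxo library the count over the whole list fell as well, so that fall is not particular to members. A fit without 1 library leaves a single library in a group, so nothing is read from its count. The filter on low counts removed no region. No paired analysis was possible because the library columns carry no replicate numbers that tie Doxo to Control. GC share and promoter overlap were not run. At 87.8% of members at least 1 control held 1 read, the lowest value, so their folds depend on that value. Neither control held 1 read at 12.2% of members and 11.8% of the whole Doxo list.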
